A study of Mus musculus with 4 samples.

Results

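The 33 genes described here are targets and regulators of the transcription factor NRF2, encoded by Nfe2l2, together with the enzymes of glutathione, thioredoxin and peroxide metabolism and the metallothioneins Mt1 and Mt2. Each was found among the non-control spots of the arrays by its symbol in the gene name column, which lists 30222 gene names in all, and the brightest probe stood for a gene with several. The cells were resident peritoneal macrophages of mice on a C57BL/6 background, either wild type or deficient in CD163, the macrophage scavenger receptor for haptoglobin-haemoglobin complexes. They were kept for 2 days in RPMI medium with fetal bovine serum, and the LPS groups then received bacterial lipopolysaccharide at 100 ng/mL for 1 day. Both genotypes were studied untreated and LPS-treated, which makes 4 groups. Each group was 1 Agilent 1-colour array, so no difference below has a replicate check, none was tested, and "higher" and "lower" compare single arrays. How the CD163 gene was disrupted, how many mice gave each sample and how long the untreated cells were kept were not given in the sources used here.

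NRF2 is held in the cytoplasm and marked for degradation by KEAP1. When oxidants or electrophiles modify KEAP1, NRF2 accumulates, pairs with a small MAF protein and binds antioxidant response elements, which BACH1 can occupy as a repressor. Its classical targets import cystine, build and recycle glutathione, regenerate NADPH and detoxify quinones, while peroxiredoxins, glutathione peroxidases and catalase remove peroxides. In activated macrophages this system works beside the oxidants that the cells make to kill microbes.

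A level is the log2 of the background-subtracted spot intensity minus the log2 of the 75th percentile of its array, so 0 is the brightness of that percentile. The 75th percentile intensities ranged from 909.6 to 1325, no spot was saturated, and between 81.8% and 87.8% of gene names were detected, meaning well above background in at least 50% of their spots. All 33 genes were detected on all 4 arrays. For 399 probes printed in 10 spots each, the median SD between spots of 1 array was 0.100 to 0.119 log2, which covers spotting error only. The Cd163 probe was dim on every array, at −5.47 in wild type and −6.00 in the CD163-deficient cells without LPS and at −5.01 and −5.48 with LPS, and whether it lies in the disrupted stretch is not known, so it did not check the genotype labels. Of 8 macrophage markers, 7 were on the array under their listed symbol and all 7 were detected on every array, with Csf1r between 7.37 and 7.62. All 8 mesothelial and fibroblast markers were detected as well. Their summed level was 6.01 and 6.32 in wild type without and with LPS and 5.86 and 5.68 in CD163-deficient cells, and with LPS 6 of the 8 were lower in the CD163-deficient culture. With LPS 6 of the 8 were lower in wild type, 3 of them past 2-fold (Msln by −1.56, Upk3b by −1.78 and Wt1 by −1.31 log2). In CD163-deficient cells 7 of the 8 were lower, 4 of them past 2-fold. Dcn and Col1a2 went the other way in wild type, higher by 1.15 and 0.51 log2, so Dcn was past 2-fold. In CD163-deficient cells Dcn and Col1a2 differed by 0.22 and −0.23. The summed level of 5 neutrophil markers went from 2.50 to 4.20 with LPS in wild type and from 2.28 to 4.36 in the CD163-deficient cells, and the markers that were higher were S100a8 (by 2.47 and 2.95 log2) and the dim Ly6g (by 2.23 and 2.05). Mpo (−0.26 and −0.62 log2) and Elane (−0.22 and −0.04) were lower, and S100a9 stayed between −4.73 and −4.31. The median level of the 5 neutrophil markers went from −2.80 to −2.72 in wild type and from −2.52 to −2.54 in the CD163-deficient cells. The part of these cells in the values below was not tested, and in RNA from a whole culture fewer cells of a type and less RNA per cell cannot be told apart.

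The antioxidant response element was looked for in the stretch from 250 bases before to 50 bases after each annotated start, taken from RefSeq (GRCm38.p6), which held an entry for 29 of the 33 genes. The core TGACNNNGC on either strand was present for 12 of the 29 genes (41.4%), against 14.0% of 27025 genes with an entry of the same length. The 13 matches are shown because this element defines the family; each line runs 5′ to 3′ along the motif, with the core in capitals and 10 bases on each side.
Nfe2l2: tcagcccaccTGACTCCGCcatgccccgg
Gclm: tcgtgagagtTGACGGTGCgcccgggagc
Gsta3: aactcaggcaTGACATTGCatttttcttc
Sod1: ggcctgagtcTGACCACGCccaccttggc
Txnrd1: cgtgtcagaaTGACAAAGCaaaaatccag
Srxn1: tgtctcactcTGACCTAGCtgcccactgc
Prdx1: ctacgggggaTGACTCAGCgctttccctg
Me1: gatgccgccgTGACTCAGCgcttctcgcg
G6pdx: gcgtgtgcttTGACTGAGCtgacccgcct
Pgd: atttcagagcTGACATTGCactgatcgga
Ugdh: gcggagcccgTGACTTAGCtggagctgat
Ugdh: ccgaactgtaTGACCACGCcccttgagga
Mt2: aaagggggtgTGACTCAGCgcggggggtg
Prdx1, Me1 and Mt2 carried the identical core TGACTCAGC, and Ugdh carried 2 different cores. A match of letters is a description and not a measured binding site. The 12 genes with a core had a median LPS difference of 0.05 log2 in wild type and 0.12 in the CD163-deficient cells. The other 17 with an entry had −0.21 and −0.04, and all genes compared had 0.006 and 0.035. At least 2-fold higher with LPS were 0 and 1 of the 12, and 3 and 3 of the 17 (background 6.4% and 7.24%). At least 2-fold lower were 1 and 0 of the 12, and 4 and 3 of the 17 (background 5.01% and 5.44%).

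Across the 33 genes LPS moved single genes strongly in both directions while the middle of the set moved little. In wild type 18 genes were higher with LPS (54.5%, against 50.5% of all genes) and 15 lower. The median difference was 0.083 log2 against 0.006 over 26713 genes compared. At a level of 0 or more on every array, 53.3% of the members and 41.9% of all such genes were higher. Slc7a11, Keap1 and Prdx5 were at least 2-fold higher, 3 of 33 or 9.09%, where the background was 6.4% of all genes. Bach1, Cat, Gpx1, Mt1 and Sod1 were at least 2-fold lower, 5 of 33 or 15.2%, where the background was 5.01%. In CD163-deficient cells 20 genes were higher with LPS (60.6%, against 53.4% of all genes) and 13 lower, a split of 16 and 17 after quantile normalization. The median was 0.12 log2 against 0.035 over 26185 genes. Among genes of that brightness 56.7% of the members and 51.0% of all were higher. Slc7a11, Prdx5, Me1, Gsr and Txn1 were at least 2-fold higher (15.2% of the 33, background 7.24%), and Cat, Bach1 and Gpx1 at least 2-fold lower (9.09%, background 5.44%). Gsr and Txn1 fell short of 2-fold after quantile normalization, at 0.87 and 0.86 log2. The genes past 2-fold in both genotypes were Slc7a11 and Prdx5 upward (2 of 33, background 4.34%) and Bach1, Cat and Gpx1 downward (3 of 33, background 3.38%). With no limit on size, 16 genes were higher in both genotypes (48.5%, background 36.9%) and 11 were lower in both (33.3%, background 34.6%). Both LPS arrays lay above both arrays without LPS for 12 genes (36.4%, against 32.4% of all genes detected on the 4 arrays) and below them for 11 (33.3%, against 29.3%), shares close to the background.

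**Figure D1:**
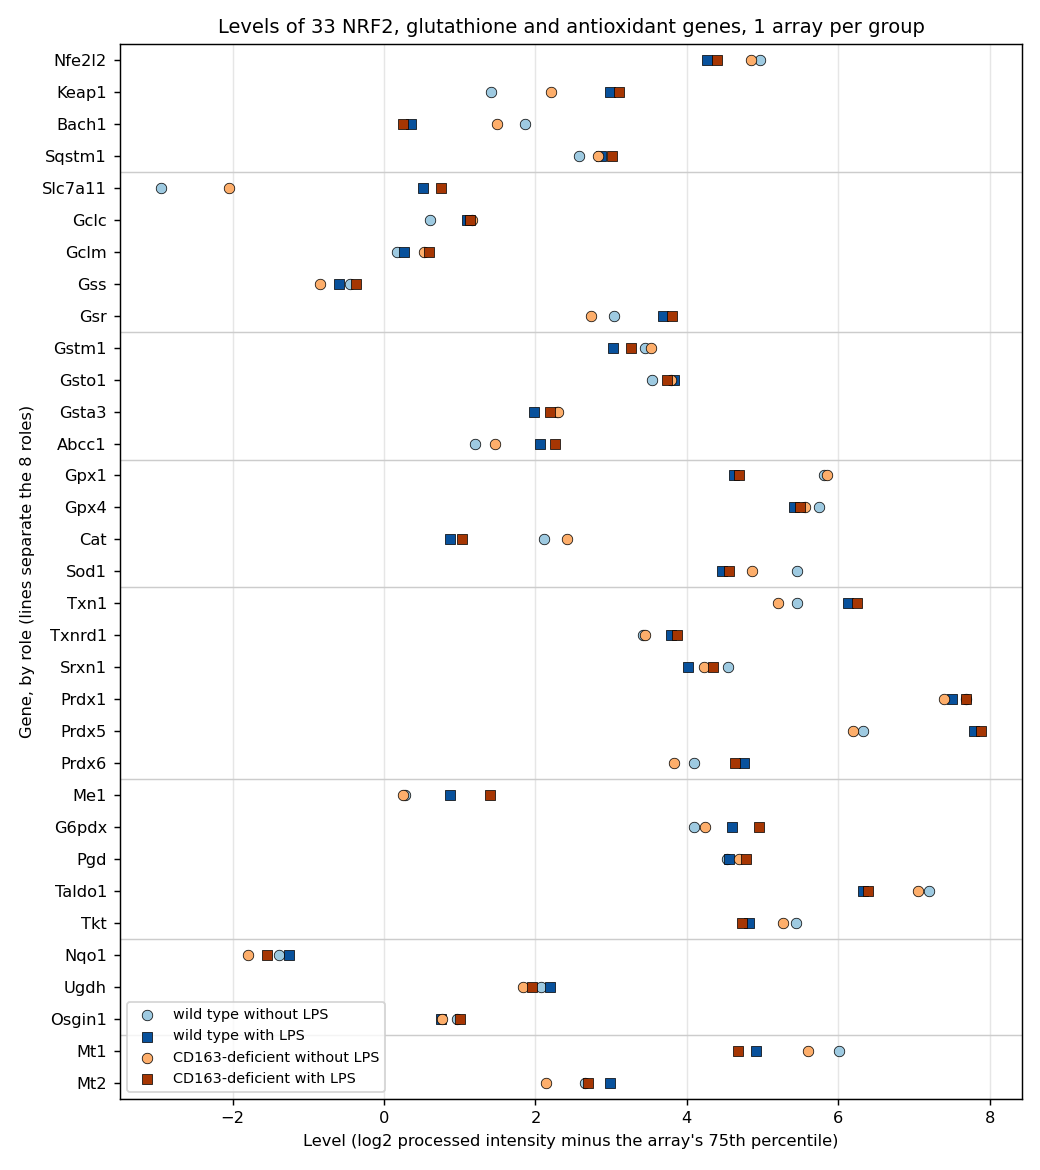
Levels of the 33 genes (log2 processed intensity minus the 75th percentile of the array) on the 4 arrays, with 1 point per array and no error bars because each group was 1 array; horizontal lines separate the 8 roles. Slc7a11 shows the widest gap between arrays with and without LPS, and Bach1, Cat and Gpx1 lie lower on both LPS arrays.

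The 4 regulators did not move as a block; in all that follows a pair of levels gives the array without LPS and then the array with LPS, wild type before CD163-deficient. Nfe2l2, which encodes NRF2, stood at 4.96 in wild type and 4.27 after LPS, and at 4.85 and 4.40 in the CD163-deficient cells. Both LPS arrays were lower, by 1.61-fold in wild type and 1.36-fold in the CD163-deficient cells. Keap1, the adaptor that presents NRF2 for degradation (probe chr9:21035292-21035732, mm9), had levels of 1.41 and 2.98 in wild type and 2.20 and 3.10 in the CD163-deficient cells. LPS arrays were again separate, here above, by 2.98-fold in wild type and 1.87-fold in the CD163-deficient cells, and the untreated CD163-deficient array was 0.79 log2 above the untreated wild type. Bach1, the repressor of the same elements (chr16:87733532-87733591), went from 1.86 to 0.35 in wild type and from 1.49 to 0.25 in the CD163-deficient cells. These were 2.85-fold and 2.35-fold lower levels with LPS, with no overlap between arrays with and without it. Sqstm1, the autophagy receptor p62 that binds KEAP1, moved least, from 2.58 to 2.86 and from 2.82 to 3.01, and its 0.19 in CD163-deficient cells changed sign under another scaling.

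In the branch that imports cystine and makes and recycles glutathione, 4 of 5 genes were higher with LPS in each genotype. The background was 50.5% of all genes in wild type and 53.4% in the CD163-deficient cells. The lower gene was Gss in wild type (−0.15 log2) and Gclc in the CD163-deficient cells (−0.01). Gclm was higher by only 0.08 and 0.06 log2. Slc7a11, the light chain of the cystine-glutamate exchanger, was measured by 1 probe at chr3:50169700-50169759 (mm9). Its level was −2.95 in wild type without LPS and 0.52 with LPS, and −2.05 and 0.75 in CD163-deficient cells. This was the widest LPS difference among the 33 genes, 11.0-fold in wild type and 6.95-fold in the CD163-deficient cells, and the arrays with and without LPS were far apart. Without LPS the CD163-deficient array was 1.87-fold above wild type, and with LPS the gap was 0.23 log2. Over all settings its LPS difference ranged from 2.93 to 3.47 log2 in wild type and from 2.54 to 2.80 in CD163-deficient cells. The genotype gap without LPS ranged from 0.59 to 0.92, and the difference between LPS responses from −0.70 to −0.40. The 250 bases before the Slc7a11 start, chr3:50443614-50443863 on the minus strand (GRCm38.p6), are shown because of this range, with both matches to TGATGCAA, the core of the composite element bound by C/EBP and ATF4-type factors, in capitals.
Slc7a11: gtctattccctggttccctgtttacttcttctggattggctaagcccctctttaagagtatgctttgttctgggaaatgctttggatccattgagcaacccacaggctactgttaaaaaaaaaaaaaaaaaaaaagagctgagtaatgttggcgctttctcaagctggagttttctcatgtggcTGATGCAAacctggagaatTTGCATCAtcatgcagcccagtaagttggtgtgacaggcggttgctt
The matches start 66 and 47 bases before the annotated start, the latter on the opposite strand. This core was present for 279 of the 27025 genes (1.03%) and for no other gene among the 29, and it was chosen after the values of Slc7a11 were seen.

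The subunits of glutamate-cysteine ligase, the first enzyme of glutathione synthesis, had smaller ranges. Gclc, the catalytic subunit, was 0.61 and 1.09 in wild type and 1.16 and 1.14 in the CD163-deficient cells, so the untreated wild-type array alone was low. Gclm, the modifier subunit, was 0.17 and 0.26 against 0.53 and 0.59, which placed both CD163-deficient arrays above both wild-type arrays with almost no LPS difference in either genotype. Gss, which joins glycine in the second step, was −0.45 and −0.60 in wild type and −0.85 and −0.37 in the CD163-deficient cells, with opposite signs of the LPS difference (−0.15 and 0.48). Gsr, which reduces oxidised glutathione with NADPH, was 3.04 and 3.69 in wild type and 2.73 and 3.80 in the CD163-deficient cells. Both LPS arrays of Gsr lay above both others, by 1.57-fold and 2.11-fold, and its second probe gave 0.88 and 1.19 log2. With LPS all 5 genes of this branch stood higher in the CD163-deficient than in the wild-type culture, with a median of 0.226 log2. Gclc turned to −0.02 under another scaling. Of all genes 50.9% were higher in that comparison, and 64.1% of those at a level of 0 or more on every array.

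The transferases that attach glutathione, and the pump that exports the conjugates, differed in direction. Gstm1, a mu-class transferase, was 3.45 and 3.02 in wild type and 3.53 and 3.26 in the CD163-deficient cells. Its brighter probe is placed on chromosome 5 and its other probe on chromosome 3 in the array's mm9 positions, so which transferase gene it reports is uncertain; the other probe was also lower with LPS, by −0.23 and −0.17. Gsto1, an omega-class transferase, was 3.54 and 3.83, and 3.79 and 3.74, with no separation of the LPS arrays. Gsta3, an alpha-class transferase, was 2.29 and 1.98, and 2.30 and 2.19, slightly lower on both LPS arrays. Abcc1, which exports glutathione conjugates, was 1.20 and 2.06 in wild type and 1.47 and 2.26 in the CD163-deficient cells. Abcc1 alone of these 4 was clearly above on both LPS arrays, by 1.82-fold and 1.73-fold. Without LPS all 4 were higher in CD163-deficient cells, where the background was 42.1% of all genes. Their median was 0.164 log2, with Gsta3 at only 0.01.

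Gpx1, Gpx4, Cat and Sod1, the glutathione peroxidases, catalase and superoxide dismutase among the 33, were lower with LPS. Of these 4, 0 were higher in either genotype or under any alternative scaling. The background was 50.5% of all genes higher in wild type and 53.4% in the CD163-deficient cells. Medians of the 4 were −1.096 log2 in wild type and −0.729 in the CD163-deficient cells. Gpx1, the cytosolic glutathione peroxidase (chr9:108242276-108242335, mm9), was 5.81 and 4.62 in wild type and 5.85 and 4.69 in the CD163-deficient cells. The genotypes were nearly superimposed, and the LPS arrays were 2.28-fold and 2.23-fold lower. Cat, catalase of the peroxisome (chr2:103294487-103294546), was 2.11 and 0.87, and 2.42 and 1.03. LPS arrays were 2.37-fold and 2.63-fold lower, and the second Cat probe gave −1.02 and −1.35 log2. Sod1, the cytosolic copper-zinc superoxide dismutase, was 5.46 and 4.46 in wild type and 4.86 and 4.56 in the CD163-deficient cells. The untreated wild-type array was the high one, so the LPS difference was 2.01-fold lower in wild type and 1.23-fold lower in the CD163-deficient cells; the wild-type value stayed just short of 2-fold after quantile normalization, at −0.95 log2. Gpx4, the peroxidase of lipid hydroperoxides, moved little, from 5.74 to 5.42 and from 5.56 to 5.50.

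The promoters of the genes that were at least 2-fold lower in both genotypes, and of Prdx5, which was at least 2-fold higher in both, are given for the 250 bases before the annotated start in GRCm38.p6, so that they can be set beside Slc7a11. The positions are chr16:87698704-87698953 (plus strand) for Bach1, chr2:103485154-103485403 (minus) for Cat, chr9:108338830-108339079 (plus) for Gpx1 and chr19:6910107-6910356 (minus) for Prdx5. None of the antioxidant response, metal response or TGATGCAA cores searched was found in these stretches, so they hold no capitals, and this says only that those letters are not there. Bach1 held 1 metal response core just after its start, at base 4 of the gene, outside the stretch shown.
Bach1: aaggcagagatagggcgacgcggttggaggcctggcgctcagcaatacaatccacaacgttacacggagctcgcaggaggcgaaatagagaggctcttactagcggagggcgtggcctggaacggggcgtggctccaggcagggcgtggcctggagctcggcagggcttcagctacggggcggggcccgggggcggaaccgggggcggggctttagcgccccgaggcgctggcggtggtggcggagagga
Cat: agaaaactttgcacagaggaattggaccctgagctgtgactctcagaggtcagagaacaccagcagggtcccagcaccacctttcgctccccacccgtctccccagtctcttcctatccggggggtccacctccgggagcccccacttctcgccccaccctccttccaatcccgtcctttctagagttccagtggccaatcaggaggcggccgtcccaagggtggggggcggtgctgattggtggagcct
Gpx1: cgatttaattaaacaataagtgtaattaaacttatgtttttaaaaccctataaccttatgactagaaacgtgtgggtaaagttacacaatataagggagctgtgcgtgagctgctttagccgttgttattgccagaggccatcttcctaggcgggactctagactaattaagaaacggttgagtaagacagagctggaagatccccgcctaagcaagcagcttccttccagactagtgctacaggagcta
Prdx5: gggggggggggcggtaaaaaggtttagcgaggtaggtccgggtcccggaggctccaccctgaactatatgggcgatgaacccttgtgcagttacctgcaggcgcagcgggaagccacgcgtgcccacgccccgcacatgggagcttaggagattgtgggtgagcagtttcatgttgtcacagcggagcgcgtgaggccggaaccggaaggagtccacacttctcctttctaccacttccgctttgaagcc

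Against the peroxidases, the thioredoxin and peroxiredoxin branch was mostly higher with LPS. These were 4 of 6 genes in wild type and 6 of 6 in the CD163-deficient cells, where the background was 50.5% and 53.4% of all genes. Medians of the branch were 0.518 and 0.616 log2. Prdx5, a peroxiredoxin of mitochondria, peroxisomes and cytosol (chr19:6981198-6981256, mm9), was 6.33 and 7.79 in wild type and 6.19 and 7.89 in the CD163-deficient cells. The arrays with and without LPS were well apart, by 2.75-fold and 3.24-fold, and its second probe gave 2.22 and 2.35 log2. Txn1, thioredoxin itself, was 5.46 and 6.13, and 5.21 and 6.25, which is 1.59-fold and 2.05-fold higher with LPS. Txnrd1, the cytosolic reductase of thioredoxin, was 3.42 and 3.79, and 3.45 and 3.87, with the genotypes almost equal. Prdx6, a peroxiredoxin that uses glutathione, was 4.10 and 4.76, and 3.83 and 4.63, and all of its probes were higher with LPS in both genotypes. Prdx1, an abundant cytosolic peroxiredoxin, was 7.68 and 7.50 in wild type and 7.40 and 7.68 in the CD163-deficient cells. Srxn1, which reactivates over-oxidised peroxiredoxins, was 4.54 and 4.01, and 4.23 and 4.35. Prdx1 and Srxn1 were thus lower with LPS in wild type and higher in the CD163-deficient cells, but the Prdx1 sign in wild type and the Srxn1 sign in the CD163-deficient cells each changed under another scaling, and a second Prdx1 probe gave 0.03 in wild type.

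**Figure D2:**
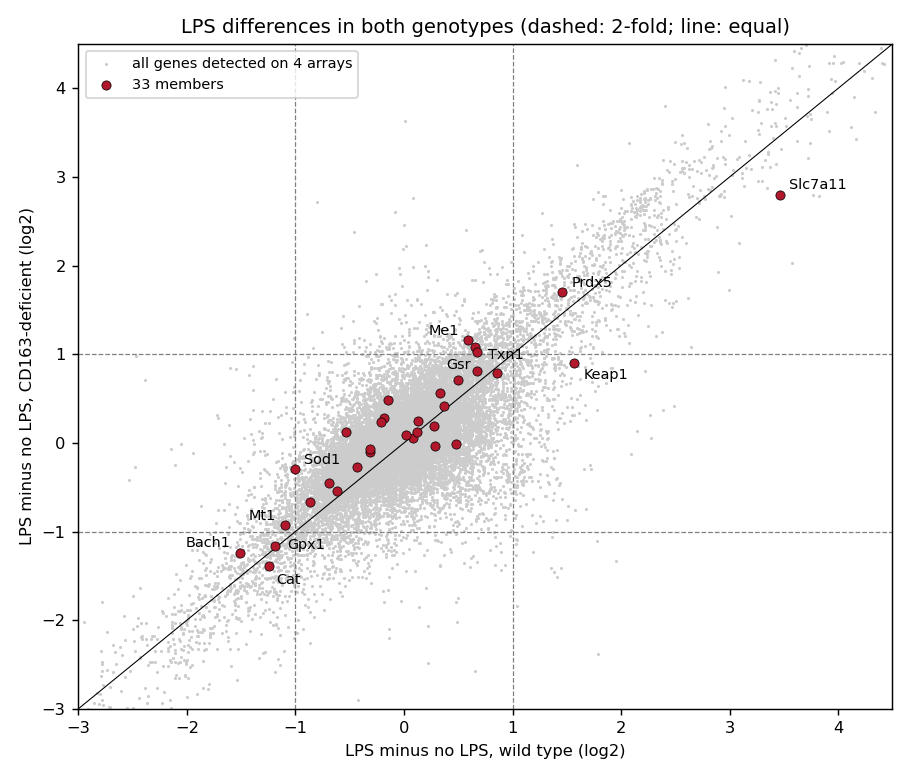
LPS difference (log2, LPS minus no LPS) in wild type on the x axis and in CD163-deficient cells on the y axis, with the 33 genes in red over all genes detected on the 4 arrays in grey; dashed lines mark 2-fold, the solid line equality, and genes beyond the axis limits are not drawn. Slc7a11 (3.46 and 2.80) and Prdx5 (1.46 and 1.70) stand upper right, Bach1, Cat and Gpx1 lower left, and Keap1 (1.57 and 0.90) to the right of equality.

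NADPH for these reductases comes from the pentose phosphate pathway and malic enzyme, and these 5 genes differed in the LPS direction. G6pdx, which commits glucose phosphate to the oxidative arm, was 4.09 and 4.59 in wild type and 4.24 and 4.95 in the CD163-deficient cells, above on both LPS arrays. Pgd, the next NADPH-making enzyme of that arm, was 4.53 and 4.56, and 4.69 and 4.78, so that its range was small and its LPS sign changed with the scaling. Taldo1 and Tkt, the transaldolase and transketolase that shuffle sugars in the non-oxidative arm, were both lower on the LPS arrays, whereas Rpe, an epimerase of the same arm outside the 33, was higher, by 0.68 and 0.72 log2. Taldo1 was 7.20 and 6.33, and 7.05 and 6.39, a difference of 1.83-fold and 1.59-fold. Tkt was 5.44 and 4.82, and 5.27 and 4.73. Me1, the cytosolic malic enzyme, was 0.28 and 0.87 in wild type and 0.25 and 1.40 in the CD163-deficient cells. The CD163-deficient culture with LPS was the high array, 1.45-fold above wild type with LPS, and the other Me1 probes gave 0.46 and 0.29 log2 for this gap. Their LPS differences were 0.85 and 1.05 in wild type, against 1.07 and 1.03 with CD163 deficiency, so the wider response in CD163-deficient cells appeared on the brightest probe and, at 0.21, on the next, and not on the third.

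The quinone and glucuronidation genes had small LPS differences. Nqo1, the quinone reductase often used to read NRF2 activity, was −1.39 and −1.25 in wild type and −1.80 and −1.55 in the CD163-deficient cells. Ugdh, which makes the sugar donor for glucuronidation, was 2.07 and 2.19, and 1.84 and 1.96. Osgin1, an oxidative-stress-induced regulator, was 0.96 and 0.75, and 0.77 and 1.00. Its LPS differences had opposite signs, −0.21 log2 in wild type and 0.23 in the CD163-deficient cells. Over all settings the difference between these responses ranged from 0.42 to 0.48. For Nqo1 and Ugdh both CD163-deficient arrays lay below both wild-type arrays, and their LPS differences did not exceed 0.25 log2.

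The metallothioneins, which bind zinc and copper and can scavenge oxidants, differed from each other in the LPS direction and shared the genotype direction. Mt1 (probe chr8:96704165-96704224, mm9) was 6.01 and 4.91 in wild type and 5.60 and 4.68 in the CD163-deficient cells, so both LPS arrays were lower, by 2.14-fold and 1.90-fold. A second, dim Mt1 probe gave −0.12 and −0.05 log2, and with the mean of both probes the wild-type difference was −0.61. Mt2 (chr8:96697371-96697430) was 2.65 and 2.98, and 2.14 and 2.69, so both LPS arrays were higher, by 1.26-fold and 1.47-fold. CD163-deficient cells were lower than wild type for both genes, by 0.40 and 0.51 log2 without LPS and by 0.24 and 0.28 with LPS. These genes are neighbours, so the bases before each start, chr8:94178839-94179088 for Mt1 and chr8:94172368-94172617 for Mt2 (both plus strand, GRCm38.p6), are shown together, with metal response element cores (TGCACNC or TGCGCNC, either strand) and, in Mt2, the antioxidant core in capitals.
Mt1: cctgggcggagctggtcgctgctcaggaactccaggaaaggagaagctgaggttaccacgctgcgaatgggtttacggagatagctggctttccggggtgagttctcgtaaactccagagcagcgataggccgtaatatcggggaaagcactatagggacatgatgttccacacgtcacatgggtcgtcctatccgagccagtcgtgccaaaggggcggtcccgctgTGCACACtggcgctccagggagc
Mt2: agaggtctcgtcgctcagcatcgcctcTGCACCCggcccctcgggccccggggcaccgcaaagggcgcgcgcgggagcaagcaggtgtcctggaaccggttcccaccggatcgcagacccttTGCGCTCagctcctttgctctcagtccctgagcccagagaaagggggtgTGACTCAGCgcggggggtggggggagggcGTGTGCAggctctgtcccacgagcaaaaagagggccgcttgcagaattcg
Counting the 50 bases after the start, Mt1 held 3 metal response cores and Mt2 held 4. That core was present for 27.6% of the 29 genes and 28.2% of all genes, so its presence alone did not set the group apart.

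Between genotypes 0 of the 33 genes reached 2-fold without LPS, where 1.26% of all genes were higher and 1.16% lower in the absence of CD163. With LPS 0 of 33 reached it as well, against 1.15% and 1.06%. The widest genotype difference was the 0.90 log2 of Slc7a11 without LPS, followed by Keap1 at 0.79, Sod1 at −0.61 and Gclc at 0.55. Without LPS 14 genes were higher in CD163-deficient cells (42.4%, close to the 42.1% of all genes) and 19 lower. That split became 19 and 14 after quantile normalization. The median was −0.142 log2 against −0.060 over all genes. With LPS 25 were higher (75.8%, against 50.9% of all genes) and 8 lower, or 21 and 12 after quantile normalization. The median was 0.113 log2 against 0.005. Genes of like brightness leaned the same way: of the 30 members at a level of 0 or more on every array 76.7% were higher, and of all 7410 such genes 64.1% were higher. Both CD163-deficient arrays lay above both wild-type arrays for Gclc, Gclm and Pgd (9.09%, against 6.44% of all genes) and below them for Nqo1 and Ugdh (6.06%, against 11.8%). The Gclc gap with LPS was only 0.05 log2 and turned to −0.02 under another scaling. For Pgd the nearest levels were 4.69 in CD163-deficient cells and 4.56 in wild type, close to the spread between spots.

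**Figure D3:**
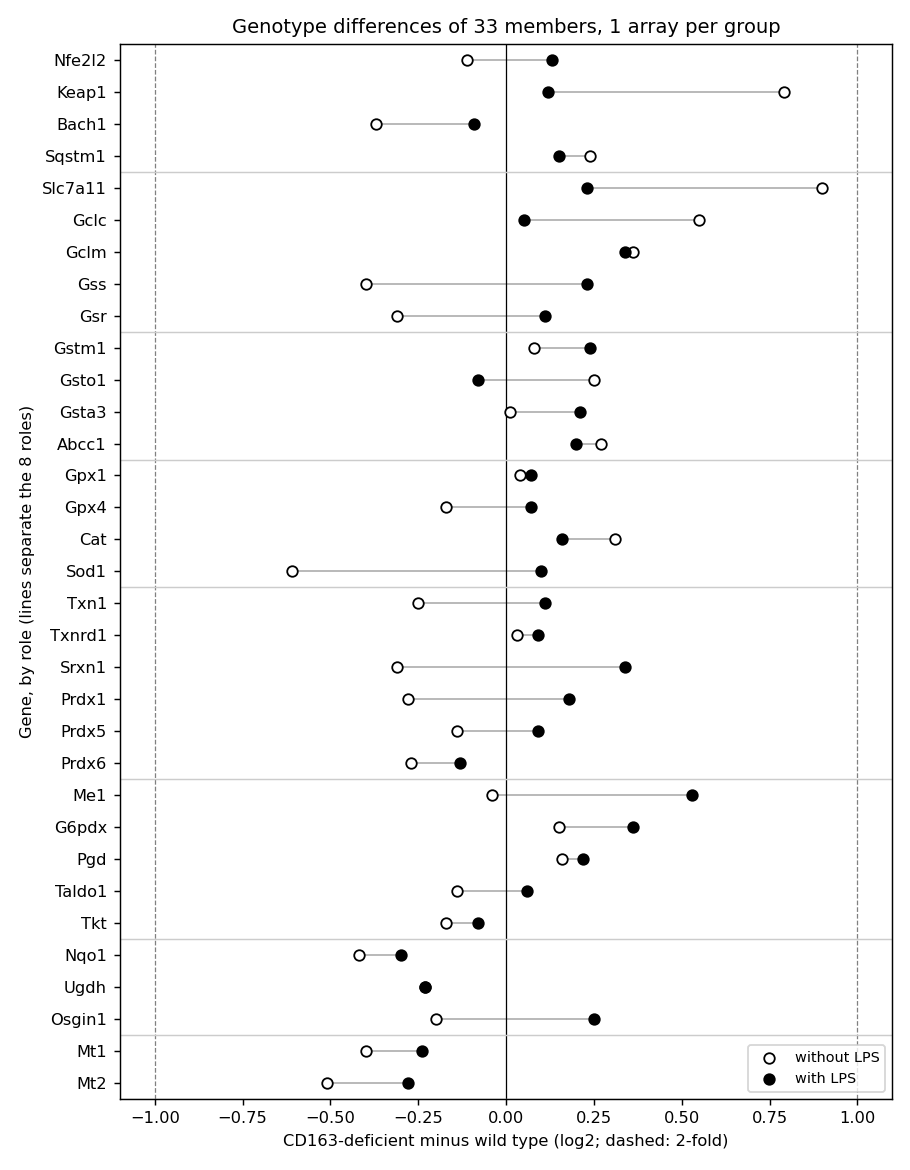
Genotype difference (log2, CD163-deficient minus wild type) of each gene without LPS (open circles) and with LPS (filled circles), 1 array per group; dashed lines mark 2-fold. No gene reaches a dashed line; Slc7a11 (0.90 without LPS and 0.23 with LPS), Keap1 (0.79 and 0.12) and Sod1 (−0.61 and 0.10) have the long connecting lines.

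The LPS responses of the genotypes had a median absolute difference of 0.228 log2 over the 33 genes. The same value over all genes was not calculated. Of the 33 responses 0 differed by 2-fold or more, where 1.51% of all genes had a higher and 2.28% a lower response in CD163-deficient cells. The sign was shared by the 16 genes higher and the 11 lower with LPS in both genotypes, and the remaining genes had opposite signs. The response was higher in CD163-deficient cells for 24 genes (72.7%, against 59.8% of all genes) and lower for 9. At a level of 0 or more on every array, the response was higher for 73.3% of the members and 69.9% of all such genes. After quantile normalization 13 were higher and 20 lower, so the lean depended on the scaling. The widest differences were those of Sod1 (0.71), Srxn1 (0.65) and Gss (0.63) upward and of Keap1 and Slc7a11 (−0.67 each) downward. In Keap1, Slc7a11 and Sod1 the genotypes were apart without LPS and within 0.23 log2 of each other with LPS. The CD163-deficient culture with LPS was the highest of the 4 arrays for 14 of 33 genes (42.4%), against 30.0% of all genes. It was the lowest for 3 (9.09%), against 25.2%. These shares were counted under the main scaling only and not for genes of like brightness, so they cannot set the group apart from other bright genes.

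The array carried 46 probes for the 33 genes, with 23 genes on a single probe and 10 on several. Among those 10, all probes of a gene shared the sign of the LPS difference in 9 genes in wild type (not Prdx1) and 9 in CD163-deficient cells (not Gsta3). They shared the sign of the genotype difference in 6 genes without LPS (not Gsr, Me1, Prdx5 and Prdx6) and in 10 with LPS. The median spread between probes of a gene was 0.22 log2 for the LPS difference in wild type and 0.26 for the genotype difference without LPS, which is as large as many of the genotype differences given above.

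**Figure D4:**
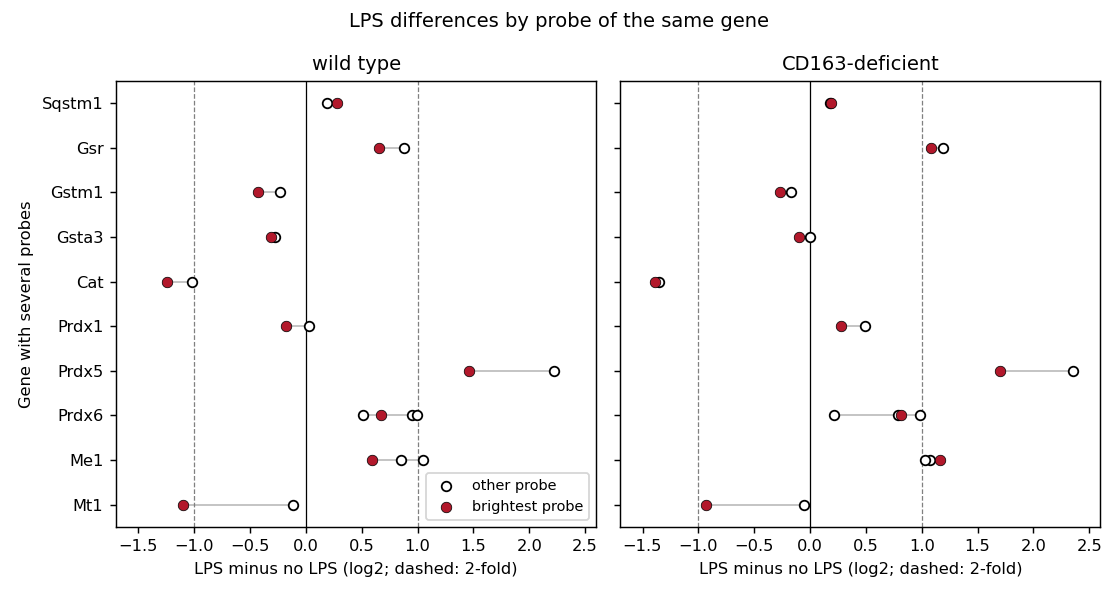
Differences (log2) given by each probe of the 10 genes with several probes, between arrays with and without LPS in wild type (left) and CD163-deficient cells (right); filled points are the brightest probe and open points the others, with 1 array per group and dashed lines at 2-fold. Prdx5, Cat and Gsr keep their LPS direction on every probe, and the dim second Mt1 probe lies near 0.

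Beyond these 33, a list of 90 related genes was compiled, of which 88 were on the array by symbol. With LPS in wild type 12 of 87 compared were 2-fold or more above the untreated array and 11 as far below it (13.8% and 12.6%, against 6.4% and 5.01% of all genes), with a median of 0 log2. In CD163-deficient cells these were 16 and 11 of 86 (18.6% and 12.8%, against 7.24% and 5.44%), with a median of 0.078. Glrx, a glutathione-dependent disulphide reductase, had levels of 1.48 and 4.59 in wild type and 1.85 and 4.90 in the CD163-deficient cells. Sod2, the mitochondrial superoxide dismutase, was 5.25 and 8.14, and 5.05 and 8.26, opposite in direction to Sod1. Both were over 7-fold higher with LPS in each genotype, with log2 differences of 3.11 and 3.05 for Glrx and 2.88 and 3.21 for Sod2. Hmox1, the haem oxygenase that NRF2 and BACH1 both act on, was 4.29 and 5.91 in wild type and 4.20 and 6.34 in the CD163-deficient cells, 3.07-fold and 4.41-fold higher with LPS. Its genotype difference was −0.10 without LPS, where its probes differed in sign, and 0.43 with LPS.

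Other genes past 2-fold upward with LPS included Sod3, the extracellular superoxide dismutase (2.01 log2 in wild type and 2.20 in the CD163-deficient cells), the selenoprotein gene Sepw1 (2.01 and 1.76) and Slc39a14, a zinc importer (2.02 and 1.40). Chac1, which degrades glutathione, was also higher (1.81 and 1.85). Gstt1, a theta-class transferase, gave 1.65 and 2.04 on its brighter probe and −0.05 and 0.22 on the other. On the lower side, Ephx1, the microsomal epoxide hydrolase, gave −2.80 and −2.83, and Mgst3, a microsomal glutathione transferase, gave −2.68 and −2.28. Txnip, which binds and inhibits thioredoxin, gave −2.23 and −2.93, opposite to Txn1. The selenium carrier Sepp1 gave −2.14 and −2.09, and Gpx3, the secreted glutathione peroxidase, −1.55 and −2.14. Slc39a8, another zinc importer, gave −1.53 and −2.32. Between genotypes 1 of the wider genes passed 2-fold in each state, a share of 1.16% without LPS and 1.15% with LPS, close to the background for higher genes of 1.26% and 1.15%: Slc39a10, a zinc importer, without LPS (1.01 log2 higher in CD163-deficient cells) and Mt4, a dim metallothionein, with LPS (1.31, at levels from −4.19 to −2.76).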

How the data were processed

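RNA from 4 cultures was labelled with Cy3 and hybridised to 4 Agilent 1-colour arrays that shared 1 slide and scan time. The deposited intensity values are Feature Extraction processed signals, background-subtracted and detrended within each array per the file headers (version 10.7.1.1; the submitters' processing notes name 9.5.1.1). A deposited table of linear intensity values, each array with a median of 175.3, carries a normalization not given in the sources used here; it lay a median of 0.0154 log2 from a quantile normalization of the same arrays. Signals were divided by the 75th percentile of the 43020 non-control spots of their array, log2 transformed and averaged over spots of a probe, leaving out outlier spots (120 to 197 per array). The brightest probe stood for each gene. A gene was compared where it was detected on at least 1 array of the pair (all 4 for differences between responses), and an undetected side was held at the lowest detected level in 2-fold counts. The calculations were tested on simulated data. Python 3.11.15, numpy 2.4.6, pandas 2.3.3, matplotlib 3.10.9, R 4.3.3 and limma 3.58.1 (normexp, offset 50) were used. With 1 array per group no test was run, and the number of arrays limits the precision; a model without a genotype-by-LPS term, which takes the difference between responses as error, was not fitted.

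All 33 genes were named. Of the wider genes, up to 6 per direction past 2-fold in each comparison between arrays were named, and Hmox1 always. Rpe, Txn2, Txnrd2, Txnrd3, Prdx2, Prdx3 and Prdx4 were also named, beside the members of their branch. The genes and lists were chosen with earlier results of these data known. Probe positions are the array design's mm9 positions, and promoters and gene symbols come from RefSeq (GRCm38.p6); 32 of the 33 probes carried a RefSeq accession and all 32 matched the symbol. Exon and UTR annotation was not used here. The alternatives were normexp background correction, quantile normalization, the authors' deposited table, scaling to the median of the probes detected, averaging a gene's probes, detection on every array and no detection filter.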

Additional observations from a re-analysis of the deposited data

How the results depend on the processing

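No analysis paired by replicate number was run, since the labels number no replicates and each group had 1 array. Over the 7 alternatives none of the 16 differences of 2-fold or more changed direction. Of these, 4 fell under 2-fold in at least 1 alternative: Sod1 in wild type (−0.97 log2 with normexp, −0.95 with quantile normalization and −0.94 in the deposited table), Mt1 in wild type (−0.61 with the mean of its probes), and Gsr and Txn1 in CD163-deficient cells (0.87 and 0.86 with quantile normalization). Mt1 in CD163-deficient cells passed it at −1.14 with quantile normalization and −1.13 in the deposited table. The number of genes 2-fold higher with LPS in CD163-deficient cells was 3 with quantile normalization and 3 in the deposited table, against 5.

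Medians over the 33 genes moved under the same alternatives, quantile normalization first and the deposited table second. The LPS difference in CD163-deficient cells went from 0.12 to −0.004 and −0.003, the genotype difference without LPS from −0.142 to 0.075 and 0.073, and the difference between LPS responses from 0.167 to −0.037 and −0.037. Normexp moved the median of all genes, by more than 0.1 log2, to −0.176 for LPS in wild type, −0.166 for genotype without LPS and 0.193 for the difference between responses. The sign held in all settings for 31 of 33 genes for LPS in wild type, 28 for LPS in CD163-deficient cells, 27 for each genotype difference and 21 for the difference between responses. The 0.119 log2 spread between spots holds for single spots within an array. A genotype difference subtracts values of different arrays, so its spotting error is larger. Genotype differences near that spread or moderately above it cannot be told from spotting error.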
